A study of Rattus norvegicus with 8 samples.

Results

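The genes described here are the heat shock proteins and Dnaj chaperones of rat extraocular muscle, the group of small muscles that move the eye. They were chosen by name: a gene belonged to the group if a probe set with exactly 1 annotated symbol carried a symbol that starts with Hspa, Hspb, Hsp90, Hspd, Hspe, Hsph or Dnaj, or the symbol Cryab. This gave 54 genes, read by 70 probe sets, among the 10411 genes that had such a probe set on the array. Where several probe sets read a gene, the one with the highest mean intensity over all captures stood for it. By family, taken from the symbol, they were 9 Hsp70 genes, 1 Hsp110 gene, 2 Hsp90 genes, 7 small heat shock proteins, 2 mitochondrial chaperonin genes, 31 Dnaj genes (4 Dnaja, 9 Dnajb and 18 Dnajc) and 2 genes whose symbols start with Hspb without being small heat shock proteins.

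Chaperones hold unfolded proteins in solution and help them to fold, and they hand damaged ones to the proteasome or the lysosome. Hsp70 binds and releases its clients in a cycle driven by ATP, in which a J protein of the Dnaj family delivers the client and starts ATP hydrolysis, and an exchange factor such as Hsp110 or a Bag protein resets Hsp70. Small heat shock proteins bind unfolding proteins without ATP and are abundant in muscle, where Cryab, Hspb1 and Hspb8 lie along the sarcomere and its desmin network and where Hspb8, Bag3 and Hsp70 together clear damaged Z-disc proteins. In the cytosol many chaperone genes are driven by heat shock factors through heat shock elements, and in the endoplasmic reticulum by the unfolded protein response through ER stress elements.

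Tissue of the orbital layer, which lies toward the bony orbit, and of the global layer, which lies against the eyeball, had been cut from muscle of adult Rattus norvegicus with a laser. There were 4 captures of the orbital layer and 4 of the global layer, and each was amplified with a T7 method and hybridised to 1 RAE230A array. The labels name no strain, sex or treatment, and they do not say which animals the captures came from or how many animals there were. P-values therefore describe only the spread between captures, which may be technical, and they are too small if captures share an animal.

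The median intensity over probe sets was between 59.0 and 66.4 on the 8 arrays. Skeletal muscle markers were present in every capture, with summed intensities of 71950 to 105981 in orbital captures and 83137 to 124901 in global captures, and 1 of 14 (Ttn, lower) passed the test. Markers of other cell types were present too. Endothelial markers summed to 1538 to 2180 in orbital and 1487 to 1737 in global captures (1 of 10 higher). Fibroblast and matrix markers summed to 6851 to 10507 in orbital and 5118 to 9287 in global captures (3 of 12 higher), and Schwann cell and nerve markers to 2779 to 5138 in orbital and 1494 to 4764 in global captures (2 of 5 tested higher). The sums of photoreceptor markers were 1904 to 4501 in orbital and 583 to 2172 in global captures (1 of 7 tested higher). Smooth muscle and pericyte markers had 1 of 8 tested called lower (Myh11), and summed to 898 to 1372 in orbital and 1362 to 1597 in global captures. For blood and immune cells the sums were 1781 to 2529 in orbital and 1729 to 3524 in global captures (0 of 9 tested called), and for adipocytes 258 to 497 in orbital and 357 to 860 in global captures (0 of 2 tested called). Of all 7163 tested genes 4.09% were called higher and 3.59% lower. No marker of any list was at 0 in a capture, but that does not show presence, because the highest bacterial control probe set read 17.7 to 41.5. The adipocyte marker Lep was at or below that control in all 8 captures, and Sox10, Nefh, Nefl, Rcvrn and C1qb were in most. The ratio of 3′ to 5′ Gapdh signal, which grows as transcripts are shortened, averaged 8.41 ± 3.21 over orbital captures and 5.79 ± 0.478 over global captures (SD, n = 4 each), with the highest value, 12.9, in orbital capture 3. The same ratio for beta-actin went the other way, at 8.43 ± 0.536 orbital and 8.98 ± 1.43 global. Its highest value, 10.7, was in global capture 4. The part of these cell types and of transcript length in the chaperone differences was not tested.

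A promoter sequence from RefSeq (rat build GRCr8, 250 bases before to 50 bases after the gene's start) was at hand for 43 of the 54 genes. The heat shock element was searched on both strands as GAA, any 2 bases, TTC, any 2 bases and GAA, and the ER stress element on both strands as CCAAT, any 9 bases and CCACG. The heat shock element was found in 4 of the 43 (9.30%), Hsph1, Dnaja1, Hspd1 and Hspe1, against 0.798% of all 33469 promoters, and the ER stress element in 3 of the 43 (6.98%), Hspa5, Hsp90b1 and Dnajc3, against 0.0657%. Of these genes only Hsph1 passed the test between the layers, and Hspa5 and Dnajc3 differed without overlap in opposite directions without passing it. A gene of the group that is not listed either held no match or had no promoter sequence at hand. A match is a description of the letters and not a shown binding site. Promoters are printed for 4 of these genes, which carry the 2 motifs in different chaperone families, with the matched letters in capitals. They are Hsph1 (chr12:10427118-10427417, plus strand), Dnaja1 (chr5:60638154-60638453, plus strand), Hspe1 (chr9:64084077-64084376, plus strand) and Hspa5 (chr3:38452766-38453065, plus strand).
Hsph1: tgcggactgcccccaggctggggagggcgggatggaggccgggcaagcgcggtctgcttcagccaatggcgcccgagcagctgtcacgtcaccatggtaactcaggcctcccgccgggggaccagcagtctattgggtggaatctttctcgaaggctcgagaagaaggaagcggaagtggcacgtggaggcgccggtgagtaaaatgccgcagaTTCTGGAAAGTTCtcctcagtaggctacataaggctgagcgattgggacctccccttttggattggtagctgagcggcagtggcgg
Dnaja1: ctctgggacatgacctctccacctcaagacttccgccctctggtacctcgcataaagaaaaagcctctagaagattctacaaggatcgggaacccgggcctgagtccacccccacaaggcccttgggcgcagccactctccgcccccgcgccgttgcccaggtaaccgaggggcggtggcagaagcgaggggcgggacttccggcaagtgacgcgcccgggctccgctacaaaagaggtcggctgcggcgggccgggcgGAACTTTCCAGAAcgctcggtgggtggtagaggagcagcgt
Hspe1: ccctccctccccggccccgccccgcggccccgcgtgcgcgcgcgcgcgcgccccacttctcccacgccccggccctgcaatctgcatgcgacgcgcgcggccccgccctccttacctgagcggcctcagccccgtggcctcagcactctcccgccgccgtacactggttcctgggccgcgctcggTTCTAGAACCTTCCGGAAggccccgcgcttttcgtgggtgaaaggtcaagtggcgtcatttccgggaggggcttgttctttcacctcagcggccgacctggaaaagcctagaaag
Hspa5: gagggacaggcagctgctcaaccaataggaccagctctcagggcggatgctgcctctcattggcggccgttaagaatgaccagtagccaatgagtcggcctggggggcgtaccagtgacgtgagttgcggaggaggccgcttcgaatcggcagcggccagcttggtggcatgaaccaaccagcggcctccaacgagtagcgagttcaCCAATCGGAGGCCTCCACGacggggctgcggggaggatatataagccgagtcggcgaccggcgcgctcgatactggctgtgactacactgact
In Hsph1 the match begins at position -36, counted along the printed strand from 0 at the gene's first base, and in Hspa5 at -43. In Dnaja1 it begins at 10, inside the transcribed part. In Hspe1 matches on both strands overlap and form an 18-base run, chr9:64084262-64084279, and the same run lies in the promoter of Hspd1, the neighbouring gene on the opposite strand, whose 300-base window shares 211 bases with that of Hspe1.

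The chaperones that passed the test were 4 cytosolic heat shock proteins, all higher in the orbital layer: Hsph1, Hspa1a, Hsp90ab1 and Hspb1. They are 8.70% of the 46 genes that could be tested, against 4.09% of all 7163 tested genes that were called higher, and 0 of the 46 were called lower, against 3.59%. In either direction 7.68% of all tested genes were called, and over all tested probe sets 3.91% were called higher and 3.5% lower. A gene was called where its adjusted p was below 0.05, in limma with adjustment over all 9520 tested probe sets, and differences are given as log2 of orbital over global intensity with the standard error (SE). In whole captures, fewer cells of a type and less RNA per cell cannot be told apart. The difference was positive for 29 of the 46 (63.0%, against 53.2% of all tested genes), with a median of 0.09 against 0.02 over all tested genes. All 4 orbital captures lay above all 4 global captures for 5 of the 46 (10.9%, against 7.48%), and below them for 2 (4.35%, against 6.8%). At an unadjusted p below 0.05 11 of the 46 were higher, against 12.0% of all tested genes, and 3 were lower, against 9.91%. The other 42 tested genes were not called, and 8 genes were too dim to be tested.

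**Figure D1:**
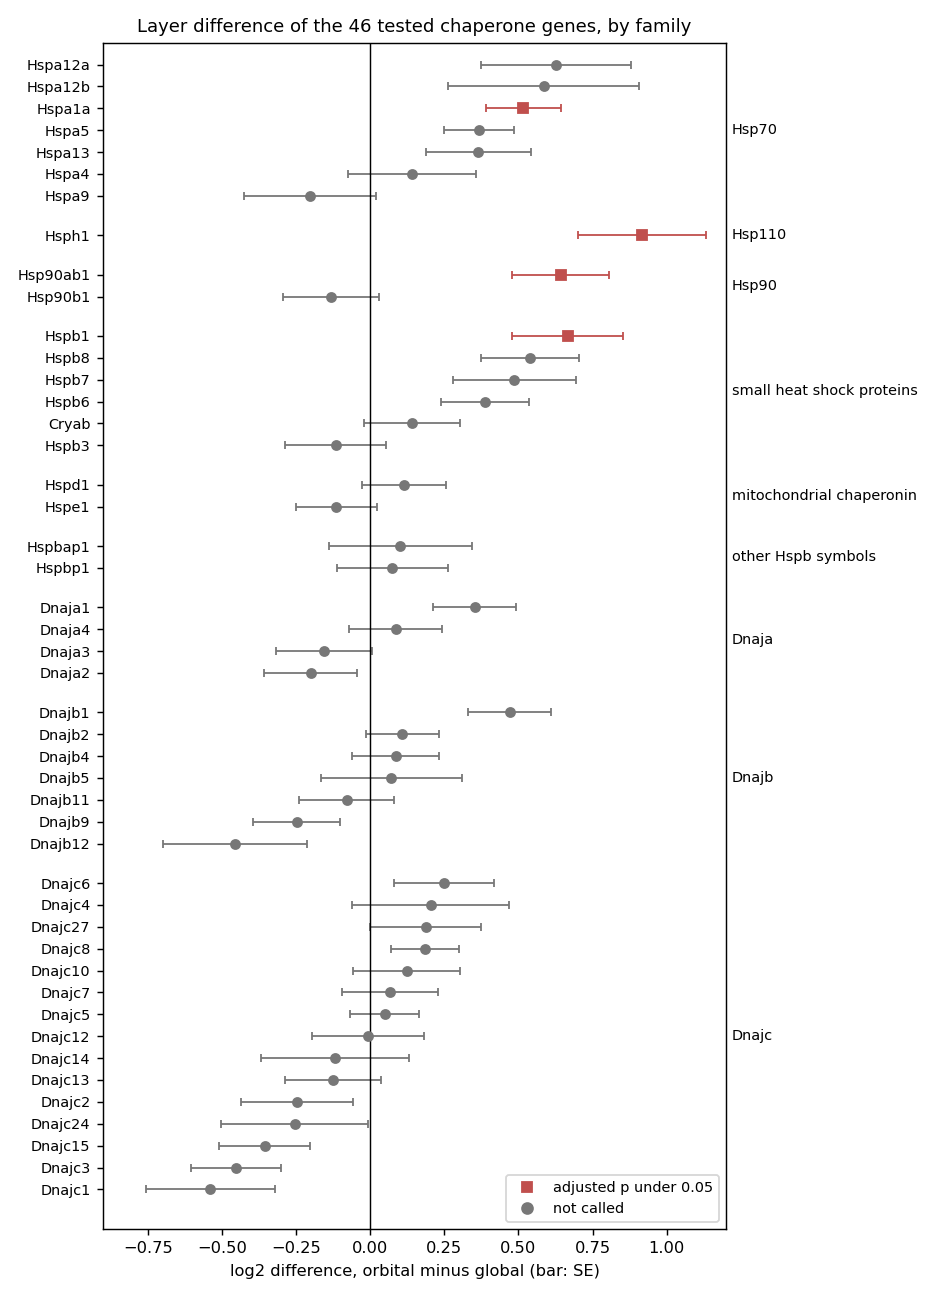
Log2 difference of orbital over global intensity (points, with bars of 1 SE) of the 46 tested chaperone genes, grouped by family, with squares for the 4 genes called. The called genes lie at 0.52 to 0.92, and the 26 tested Dnaj genes lie on both sides of 0.

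Hsph1, the Hsp110 exchange factor of Hsp70, had the greatest difference among the 4 called genes. Its intensity was 1120.1, 720.8, 661.0 and 515.4 in orbital captures 1 to 4, against 348.6, 459.2, 296.7 and 454.4 in global captures 1 to 4. The orbital captures all lay above the global ones, and orbital capture 1 was the highest of all 8. The difference was 0.92 ± 0.22, or 1.89-fold (adjusted p = 0.0205), and it was 1.17 among the captures whose titles carry R2 (captures 1 and 2 of each layer) and 0.67 among those with R3 (captures 3 and 4). What R2 and R3 stand for is not given in the labels. Without global capture 1 or global capture 3 the difference was 0.87 or 0.79 and did not pass (adjusted p = 0.0600 and 0.0661).

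Of the Hsp70 genes, 7 of 9 were tested, 1 was called higher and 6 had a positive difference, with a family median of 0.37. Over all tested genes 4.09% were called higher and 53.2% had a positive difference. Hspa1a, the stress-inducible Hsp70 of the cytosol, had an intensity of 593.0, 492.9, 646.1 and 546.9 in the orbital captures, against 395.9, 374.3, 373.5 and 444.0 in the global captures. The layers did not overlap and the captures within each layer lay close together, at 570 ± 65.3 orbital and 397 ± 33.1 global (SD, n = 4 each). The difference was 0.52 ± 0.13, or 1.43-fold (adjusted p = 0.0251), with 0.49 in the R2 and 0.54 in the R3 captures. Hspa1a has a near-identical copy in the genome, and the signal of its probe set may hold both. The call was lost without global capture 1, 2 or 3 (adjusted p = 0.0641, 0.0548 and 0.0719) and without orbital capture 1 or 3 (adjusted p = 0.0680 and 0.0789).

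Hspa5, or BiP, the Hsp70 of the endoplasmic reticulum, had 1988.6, 1570.1, 1796.3 and 1727.2 in the orbital captures, against 1455.2, 1371.2, 1336.1 and 1310.6 in the global captures. Its layers did not overlap either, but the difference of 0.37 ± 0.12 did not pass (adjusted p = 0.0800). It passed once arrays were quantile or cyclic loess normalized (adjusted p = 0.0280 and 0.0388). Hspa9, the mitochondrial Hsp70, was at 504 ± 140 orbital and 582 ± 168 global (SD, n = 4 each; difference -0.20, adjusted p = 0.659). Its captures followed the title prefix more than the layer, at 376.6 to 441.6 in the 4 R2 captures and 546.5 to 733.1 in the 4 R3 captures. Hspa12a and Hspa12b, distant relatives of Hsp70 of which Hspa12b is known from endothelial cells, had differences of 0.63 and 0.59 with overlapping layers (adjusted p = 0.169 and 0.320). Hspa13, a microsomal Hsp70, stood at 0.37 (adjusted p = 0.251). Hspa4, at 0.14 (adjusted p = 0.763), is an Hsp110-type exchange factor and was counted with Hsp70 because of its symbol.

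Of the 2 Hsp90 genes, that of the cytosol was called higher and that of the endoplasmic reticulum was not called. Hsp90ab1, the constitutive cytosolic Hsp90 that finishes the folding of kinases and steroid receptors, had 645.9, 408.4, 375.7 and 404.6 in the orbital captures, against 286.6, 291.1, 299.8 and 268.7 in the global captures. The global captures were nearly level at 287 ± 13.1, and every orbital capture exceeded them, with orbital capture 1 far above the other 3. The difference was 0.64 ± 0.16, or 1.56-fold (adjusted p = 0.0306), with 0.83 in the R2 and 0.46 in the R3 captures. A second Hsp90ab1 probe set read 397.3, 272.5, 282.4 and 203.8 orbital, against 216.4, 294.6, 337.9 and 295.5 global, and it differed by -0.01 ± 0.20 (adjusted p = 0.988), so the probe sets of this gene disagree. When the probe sets of each gene were averaged, Hsp90ab1 was not called (0.32, adjusted p = 0.300), and the median of the 2 Hsp90 genes was 0.09, against 0.26 as reported. Without orbital capture 1 the difference of the first probe set was 0.47 (adjusted p = 0.0580), and without global capture 1, 2, 3 or 4 adjusted p was 0.0701, 0.0508, 0.0606 and 0.0707. Hsp90b1, or Grp94, the Hsp90 of the endoplasmic reticulum, had 181.4, 223.7, 178.3 and 164.3 orbital, against 164.1, 251.2, 192.8 and 215.4 global, with a difference of -0.13 ± 0.16 (adjusted p = 0.699). Both layers spanned about the same range for Hsp90b1.

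**Figure D2:**
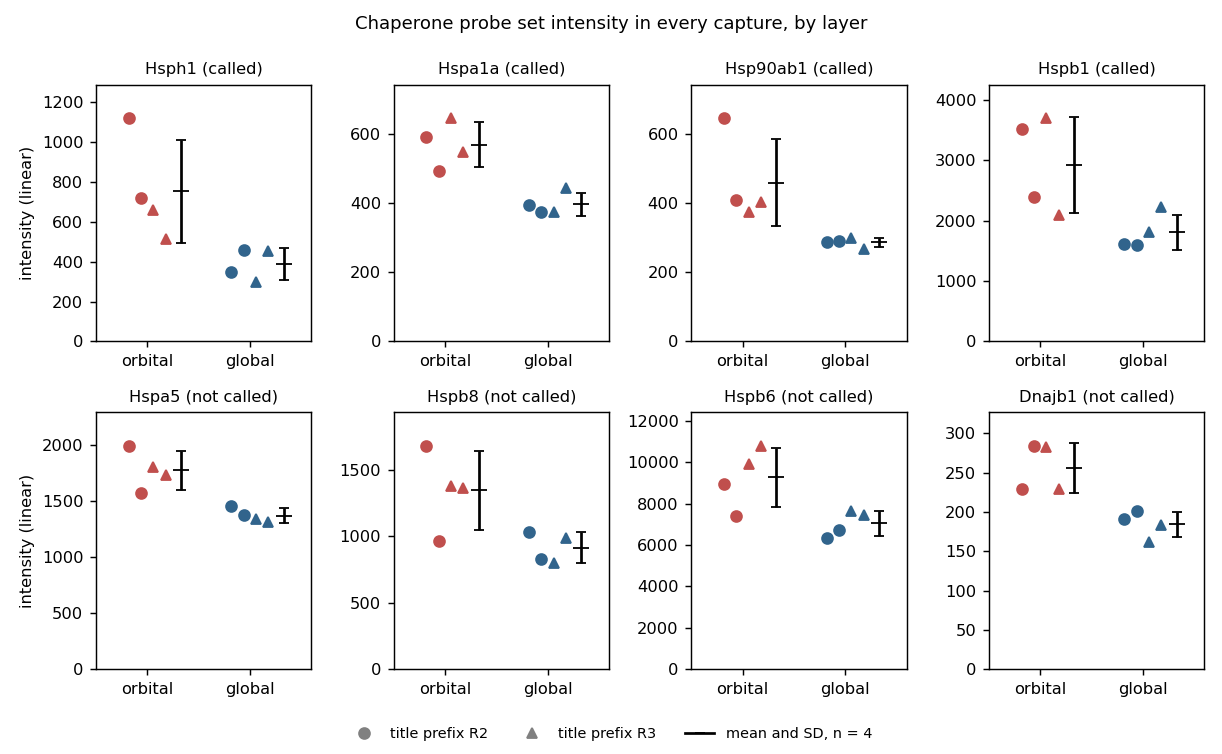
Probe set intensity on a linear axis for 8 chaperone genes in every orbital (red) and global (blue) capture, with circles for title prefix R2, triangles for R3, and the mean with SD of 4 captures per layer. Hsph1, Hspa1a and Hsp90ab1 show no overlap of the layers, while for Hspb1 orbital capture 4 (2102.2) lies below global capture 4 (2224.7).

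Among the small heat shock proteins 6 of 7 were tested, 5 had a positive difference and 1 was called higher, and the family median was 0.44. Of all tested genes 53.2% had a positive difference and 4.09% were called higher. Hspb1, or Hsp27, which stabilises actin filaments, had 3516.5, 2397.5, 3700.4 and 2102.2 in the orbital captures, against 1607.3, 1597.2, 1812.1 and 2224.7 in the global captures. Orbital captures 1 and 3 were high and orbital captures 2 and 4 lower, and global capture 4 lay above orbital capture 4. The difference was 0.67 ± 0.19, or 1.59-fold, and passed narrowly (adjusted p = 0.0496), with 0.86 in the R2 and 0.47 in the R3 captures. It no longer passed without global capture 1, 2 or 3 (adjusted p = 0.129, 0.101 and 0.0973) or without orbital capture 1 or 3 (adjusted p = 0.135 and 0.142).

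Hspb8, or Hsp22, the partner of Bag3, had 1678.0, 960.2, 1378.5 and 1358.0 orbital, against 1034.5, 829.3, 797.1 and 989.0 global. Only orbital capture 2 reached into the global range, and the difference of 0.54 ± 0.17 did not pass (adjusted p = 0.0696). Without orbital capture 2 it was 0.69 (adjusted p = 0.0148). Hspb6, or Hsp20, had 8973.9, 7429.0, 9911.7 and 10797.7 orbital, against 6356.6, 6744.2, 7643.8 and 7445.6 global, with a difference of 0.39 ± 0.15 (adjusted p = 0.145). Orbital capture 2 was again the capture that reached into the global range. Hspb8 and Hspb6 passed under quantile normalization (adjusted p = 0.0422 and 0.00965) and under cyclic loess normalization (adjusted p = 0.0484 and 0.0208). Hspb7, a small heat shock protein of heart and skeletal muscle, was at 195 ± 27.3 orbital and 143 ± 47.6 global (SD, n = 4 each; difference 0.49, adjusted p = 0.194). Cryab, the alphaB-crystallin that binds desmin, was at 2663 ± 383 orbital and 2434 ± 509 global (0.14, adjusted p = 0.673). Hspb3, another muscle small heat shock protein, stood at -0.12 (adjusted p = 0.752).

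The mitochondrial chaperonin, a barrel of Hspd1 (Hsp60) closed by the lid Hspe1 (Hsp10), did not differ detectably between the layers. Hspd1 had 3414.4, 2404.2, 2938.1 and 3035.5 orbital, against 2869.4, 2320.1, 2608.7 and 3067.0 global, with a difference of 0.11 ± 0.14 (adjusted p = 0.700). Hspe1 had 1686.2, 1693.4, 1334.8 and 1741.3 orbital, against 1848.8, 1962.1, 1456.3 and 1722.9 global, with a difference of -0.11 ± 0.14 (adjusted p = 0.691). The layers overlapped for both genes, which share the promoter run printed above and had differences of opposite sign, neither past the threshold.

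Of the 26 tested Dnaj genes 0 were called in either direction by limma, against 7.68% of all tested genes. At an unadjusted p below 0.05 in the same test there were 2 higher and 3 lower, against 12.0% and 9.91% of all tested genes. The differences of the 26 were positive for 13 and negative for 13, with a median of 0.02, and ran between -0.54 and 0.47. The median was -0.03 for Dnaja, 0.07 for Dnajb and -0.01 for Dnajc. By class, 2 of 4 Dnaja, 4 of 7 Dnajb and 7 of 15 Dnajc genes had a positive difference.

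Dnajb1, the main Hsp40 partner of stress-inducible Hsp70, had the smallest p of the Dnaj genes. Its intensity was 228.7, 284.0, 283.0 and 228.6 in the orbital captures, against 190.5, 200.8, 162.3 and 182.8 in the global captures. The layers did not overlap, and the difference of 0.47 ± 0.14 just missed the threshold (adjusted p = 0.0595). It passed when probe sets under the 60th percentile of intensity were left out of the test (adjusted p = 0.0445). Dnaja1, a cytosolic J protein with a heat shock element in its printed promoter, had 402.5, 413.8, 325.7 and 481.3 orbital, against 336.3, 325.7, 317.8 and 281.8 global. Only orbital capture 3 reached into the global range, and the difference was 0.35 ± 0.14 (adjusted p = 0.162). Its second probe set gave 0.32, without overlap (adjusted p = 0.171). Dnaja2, its close relative, had 1403.2, 853.9, 1004.5 and 842.8 orbital, against 1244.7, 1151.2, 1095.6 and 1128.2 global, with a difference of -0.20 ± 0.16 (adjusted p = 0.510). For Dnaja2, 3 of 4 orbital captures lay below all global captures and orbital capture 1 above them.

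Dnajb2, a J protein that passes clients to the proteasome, had 586.3, 500.1, 601.3 and 532.4 orbital, against 474.6, 542.6, 469.4 and 574.0 global (0.11 ± 0.12, adjusted p = 0.672), and its layers overlapped. Dnajb4 and Dnajb5, cytosolic relatives of Dnajb1, stood at 0.09 and 0.07, and Dnaja4 at 0.09, with 0.49 in its second probe set (adjusted p = 0.186). Dnaja3, the J protein of the mitochondrial matrix, stood at -0.16. All 4 second probe sets that were tested, of Dnaja1, Dnaja4, Dnajc10 and Hsp90ab1, were not called.

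Of the 7 tested J proteins of the endoplasmic reticulum, 6 had a negative difference, and 0 were called. Over all tested genes 53.2% had a positive difference and 7.68% were called. Dnajc3, or p58IPK, which binds unfolded proteins in the lumen, had 105.1, 105.0, 98.0 and 116.3 in the orbital captures, against 144.2, 131.0, 174.7 and 134.4 in the global captures. Every orbital capture lay below every global capture, and the difference was -0.45 ± 0.15 (adjusted p = 0.0965). Dnajc1, a membrane J protein near the ribosome, had 63.6, 54.4, 80.6 and 63.1 orbital, against 67.6, 110.7, 88.6 and 120.6 global (-0.54 ± 0.22, adjusted p = 0.167). Dnajb12, a membrane J protein of protein degradation, had 36.6, 44.2, 49.8 and 44.5 orbital, against 62.7, 56.1, 83.5 and 44.3 global (-0.46 ± 0.24, adjusted p = 0.304). For Dnajc1 orbital capture 3 lay above global capture 1, and for Dnajb12 global capture 4 lay below 2 of the orbital captures. Dnajb9 and Dnajb11, which work with BiP in the lumen, stood at -0.25 and -0.08, and Dnajc14, a membrane J protein, at -0.12. Dnajc10, a J protein that reduces disulfide bonds, stood at 0.12, with 0.31 in its second probe set, which did not overlap (adjusted p = 0.206).

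Of the other Dnajc genes, Dnajc15, a J protein of the inner mitochondrial membrane, had 533.8, 533.0, 366.5 and 503.1 orbital, against 750.3, 594.6, 584.1 and 541.4 global. The orbital captures all lay below the global ones, with a difference of -0.36 ± 0.15 (adjusted p = 0.197). Its values are given per capture for that lack of overlap, which was seen first. Dnajc8, a J protein of the splicing machinery, had 813.0, 887.3, 918.2 and 808.9 orbital, against 748.7, 714.3, 835.0 and 719.1 global (0.18 ± 0.11, adjusted p = 0.382). Global capture 3 alone reached into the orbital range for Dnajc8. The remaining tested Dnajc genes lay between -0.25 and 0.25. They include Dnajc2, a chaperone on the ribosome, at -0.25, Dnajc5, the cysteine string protein of secretory vesicles, at 0.05, Dnajc6, or auxilin, which uncoats clathrin vesicles, at 0.25, Dnajc7, a partner of Hsp70 and Hsp90, at 0.07, and Dnajc13, an endosomal J protein, at -0.13. Dnajc24, which acts in diphthamide synthesis, stood at -0.25, Dnajc27, a J protein with a Rab-like domain, at 0.19, Dnajc4 at 0.20 and Dnajc12 at -0.01.

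Neither gene with an Hspb symbol outside the small heat shock proteins was called. Hspbp1, an exchange factor of Hsp70, had 72.6, 67.3, 75.1 and 86.9 orbital, against 70.3, 70.8, 87.3 and 59.5 global (0.07 ± 0.19, adjusted p = 0.861). Hspbap1, a protein that binds Hspb1, had 49.0, 50.0, 35.8 and 50.6 orbital, against 45.2, 48.7, 45.3 and 33.3 global (0.10 ± 0.24, adjusted p = 0.850). The layers overlapped for both, and the sign of each turned to -0.01 without global capture 4.

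Of the genes too dim to be tested, Dnajc21, a J protein of ribosome assembly, stood out after its values were seen. It read 19.2, 11.1, 21.0 and 17.3 in the orbital captures, against 60.5, 53.0, 82.4 and 51.0 in the global captures. The layers did not overlap, and 3 of 4 orbital values but 0 of 4 global values were at or below the highest bacterial control probe set of their array, so no fold is given. When no probe set was filtered out, it was called lower in the orbital layer (adjusted p = 0.00915). Hspa1l, Hspa2 and Dnajb13 were at or below that control level in all 8 captures. Hspb2, a muscle small heat shock protein, read 23.8 to 72.8 orbital and 22.9 to 48.6 global, and its layers overlapped. Dnajb3 read 12.3 to 30.6 orbital and 4.4 to 24.4 global, Dnajc17 21.1 to 35.6 orbital and 5.7 to 37.7 global, and Dnajc22 15.8 to 37.0 orbital and 9.8 to 31.2 global, with overlap in each. A further 4 chaperone probe sets carry several gene symbols and were left out by the rule. Of these, 3 were called higher, against 3.91% of all tested probe sets. Their differences were 1.14, 0.47 and 0.88 (adjusted p = 0.0117, 0.0471 and 0.0132), while the other stood at 0.15 (adjusted p = 0.559).

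Grouped by the compartment in which the proteins work, 22 of the 29 positive differences belonged to genes of the cytosol and nucleus. There, 22 of 27 tested genes had a positive difference and 4 were called, with a median of 0.18. In the endoplasmic reticulum 3 of 10 were positive and 0 were called (median -0.12), and in the mitochondrion 2 of 6 were positive and 0 were called (median -0.13). Over all tested genes 53.2% had a positive difference, 4.09% were called higher and 3.59% were called lower. When each gene was set against its own mean over the 8 captures, the median over the cytosolic and nuclear genes was 0.16, 0.06, 0.18 and 0.08 in the orbital captures, against -0.08, -0.18, -0.16 and -0.11 in the global captures. These did not overlap, whereas the medians of the endoplasmic reticulum (-0.22 to 0.14 orbital, -0.20 to 0.15 global) and of the mitochondrion (-0.12 to 0.08 orbital, 0.04 to 0.18 global) did. The assignment to compartments is from general knowledge, was made with earlier results known, and leaves 3 tested genes unassigned, and the difference between compartments was not tested.

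**Figure D3:**
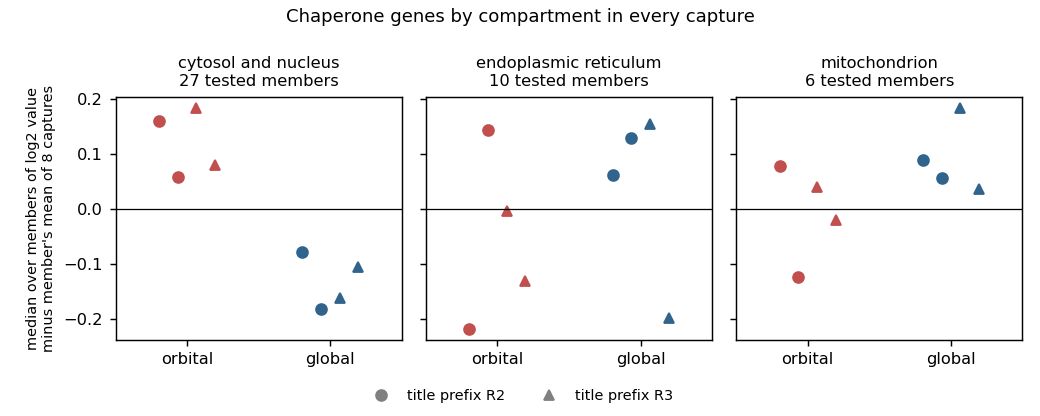
Median over the tested genes of a compartment of the log2 intensity minus each gene's mean of 8 captures, by layer, with circles for title prefix R2 and triangles for R3. The 27 cytosolic and nuclear genes had medians of 0.06 to 0.18 in the orbital captures, all above those of the global captures, while the layers overlap for the 10 genes of the endoplasmic reticulum and the 6 of the mitochondrion.

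Of the 3 tested regulators of the heat shock response 0 were called by limma, and 0 had an unadjusted p below 0.05. Hsf1, the main heat shock factor, stood at -0.02 ± 0.17 (adjusted p = 0.953), Hsf4 at 0.02 ± 0.23 (adjusted p = 0.972) and Hsbp1, which binds trimers of the heat shock factor, at -0.20 ± 0.14 (adjusted p = 0.464). The signs for Hsf1 and Hsf4 turned when single captures were left out. Hsf2, another heat shock factor, was too dim to be tested and read 47.7, 45.3, 59.4 and 32.1 orbital, against 7.5, 31.3, 30.3 and 3.1 global. Its layers did not overlap, and it was singled out after that was seen. Of its values, 2 of 4 global but 0 of 4 orbital were at or below the highest bacterial control probe set of their array. When no probe set was filtered out, Hsf2 was not called by limma (adjusted p = 0.171).

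Among 25 tested co-chaperones of Hsp70 and Hsp90, 1 was called higher and 2 lower, against 4.09% and 3.59% of all tested genes. Bag3, the exchange factor that joins Hsp70 to Hspb8, had 669.6, 643.9, 631.5 and 552.6 in the orbital captures, against 337.9, 393.5, 317.5 and 285.5 in the global captures. The layers lay far apart, and the difference was 0.91 ± 0.13 (adjusted p = 0.00104), with 0.85 in the R2 and 0.97 in the R3 captures. Hikeshi, the carrier that brings Hsp70 into the nucleus during heat stress, had 307.7, 308.1, 253.5 and 284.0 orbital, against 451.5, 457.3, 401.6 and 405.7 global (-0.57 ± 0.12, adjusted p = 0.0119). Fkbp5, an Hsp90 co-chaperone of steroid receptors whose transcription glucocorticoids raise, had 53.2, 44.7, 50.3 and 32.7 orbital, against 87.4, 80.1, 134.9 and 90.5 global (-1.09 ± 0.23, adjusted p = 0.0106). Both were lower in every orbital than in every global capture. The other 22 were not called, among them Stip1, which bridges Hsp70 and Hsp90, at -0.01 (adjusted p = 0.989), Stub1, the ubiquitin ligase of the Bag3 route, at 0.28 (adjusted p = 0.424), and Cdc37, which loads kinases on Hsp90, at 0.10 (adjusted p = 0.704), all 3 chosen after their values were seen.

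**Figure D4:**
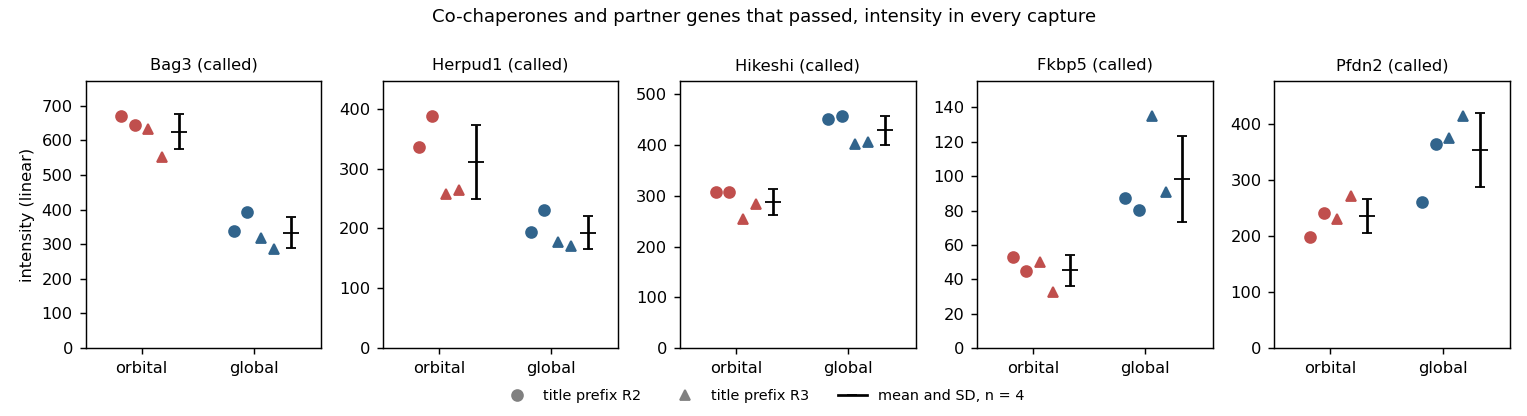
Probe set intensity on a linear axis of the 5 called genes of the co-chaperone, chaperonin and endoplasmic reticulum lists in every orbital (red) and global (blue) capture, with circles for title prefix R2, triangles for R3, and the mean with SD of 4 captures per layer. Bag3 and Herpud1 are higher and Hikeshi and Fkbp5 lower in all orbital captures, and for Pfdn2 orbital capture 4 (271.3) lies above global capture 1 (260.4).

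The cytosolic chaperonin TRiC, which folds actin and tubulin, and prefoldin, which feeds it, had 0 of 14 tested genes called higher and 1 lower. Of all tested genes 4.09% were called higher and 3.59% lower. Pfdn2, a prefoldin subunit, had 198.7, 241.6, 230.2 and 271.3 orbital, against 260.4, 363.0, 374.5 and 413.4 global (-0.57 ± 0.16, adjusted p = 0.04999, just under the threshold). It did not pass without global capture 2, 3 or 4 (adjusted p = 0.0927, 0.123 and 0.121) or orbital capture 1, 2 or 3 (adjusted p = 0.130, 0.0850 and 0.111), nor with no filter (adjusted p = 0.0676), and its second probe set stood at 0.22 (adjusted p = 0.642). The list's median was -0.10.

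In the endoplasmic reticulum, 17 of 24 tested folding and stress genes beside the chaperones had a positive difference, with a median of 0.20. Of the 24, 1 was called higher and 0 lower. Over all tested genes 53.2% had a positive difference, 4.09% were called higher and 3.59% lower. At an unadjusted p below 0.05 9 of the 24 were higher, against 12.0% of all tested genes, and 0 were lower, against 9.91%. Herpud1, a membrane protein of protein degradation induced by the unfolded protein response, had 335.3, 387.6, 257.1 and 264.1 in the orbital captures, against 193.6, 231.2, 177.4 and 170.1 in the global captures. The layers did not overlap, and the difference was 0.67 ± 0.16 (adjusted p = 0.0238). It was lost without global capture 1, 3 or 4 (adjusted p = 0.0567, 0.0678 and 0.0623) or orbital capture 1 or 2 (adjusted p = 0.0704 and 0.0696). The orbital captures lay above the global ones for 4 of the 24, against 7.48% of all tested genes, and below them for 0, against 6.8%. Besides Herpud1 the 4 were Ddit3 (0.55, adjusted p = 0.0697) and Atf4 (0.37, adjusted p = 0.122), transcription factors of the stress response, and the lectin chaperone Canx (0.31, adjusted p = 0.123), named after their values were seen. Among 12 mitochondrial folding and protease genes 0 were called by limma and 1 had an unadjusted p below 0.05, and the 3 with the smallest p were Clpx at -0.39 (adjusted p = 0.181), Htra2 at 0.33 (adjusted p = 0.251) and Lonp1 at 0.36 (adjusted p = 0.305). In all, 2 of 78 tested genes of these pathway lists were called higher and 3 lower, against 4.09% and 3.59% of all tested genes.

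The 4 chaperone calls were close to the threshold, and each was lost under some settings. In 23 alternative settings Hsph1 passed in 18, Hspa1a in 15, Hsp90ab1 in 14 and Hspb1 in 12, and the difference stayed positive in all of them. Within title prefix R2 or R3 alone, with 2 captures per layer, 0 chaperone genes passed, and 106 and 170 probe sets passed in all, against 705 with all captures. The layer difference did not itself differ detectably between the prefixes: by an interaction term in limma 0 of the 46 genes had an unadjusted p below 0.05, and 0 of 9520 probe sets passed after adjustment, with 290 below 0.05 unadjusted. Of the partner genes, Bag3 passed in 22 of 23 settings, Hikeshi in 21 of 23, Fkbp5 in 20 of 22, Herpud1 in 15 of 23 and Pfdn2 in 9 of 23.

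**Figure D5:**
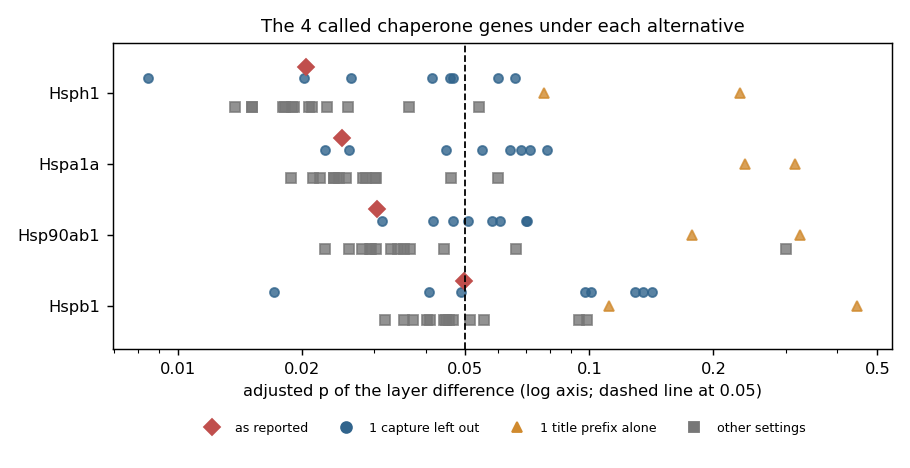
Adjusted p (log axis, dashed line at 0.05) of the layer difference of the 4 called chaperone genes as reported (diamonds), with 1 capture left out (circles), within 1 title prefix (triangles) and under the other settings (squares). Hsph1 stays left of the line in 18 of 23 alternatives and Hspb1 in 12.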

How the data were processed

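RNA from laser captures of each layer was amplified by a T7 method and run on 1-colour Affymetrix RAE230A arrays, per the labels. The deposited value table gives 1 linear intensity per probe set and array. How the probes were summarised to these values is not stated in the sources used here. The 2% trimmed means of the 8 deposited arrays agreed within 0.00389%, so the values were used as they stood.

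Captures were grouped by the layer in their source label and numbered 1 to 4 in accession order. Of 15866 probe sets (57 controls left out), 9520 with a mean log2 at or above the 40th percentile (intensity 39.4) entered the test. A model with a single term, the layer, was fitted to log2(intensity + 1) by limma (version 3.58.1, under R 4.3.3) through lmFit and the trended eBayes. Benjamini-Hochberg adjustment ran over all 9520 with a threshold of 0.05. Folds are on this scale, which understates those of dim probe sets. Symbols are those of the platform annotation, and all 54 were found in a current gene table with 0 changes. The number of arrays limits the precision. On simulated data for 4 against 4 captures, 200 of 9520 probe sets were changed. Those called were 16 of 100 with a log2 difference of 0.5 and 59 of 100 with a log2 difference of 1, and 3 of 78 calls were false. The deposited data gave 705 calls, so the simulated calls needed a smaller unadjusted p, and these shares do not carry over to the deposited data.

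The genes and lists were chosen with earlier results of these data known. Values per capture are given for genes that passed and, in each family, for the member of highest mean intensity and the 2 with the smallest p. Those of Dnajc15, Dnajc21 and Hsf2 are given because the layers did not overlap, a choice made after their values were seen. In the pathway lists every gene that passed is named, or otherwise up to 3 with the smallest p. Title prefixes share 2 captures per layer. The prefix was not taken to pair captures. Orbital captures 3 and 4, which have nearly the same title, were no more alike than other orbital pairs (SD of the log2 difference 0.458 against 0.425 to 0.449) and were counted apart. The settings varied were normalization (quantile, cyclic loess), the pseudocount (16 and 64), the filter (none, or the 60th percentile), eBayes without trend or robust, array weights, the prefix as a block, orbital captures 3 and 4 averaged, each prefix alone, each capture left out, and, for each gene, the mean of its probe sets.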

Additional observations from a re-analysis of the deposited data

Results flagged for a closer look

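In 3 of 40 sets of 4 captures (the 20 chaperone genes to which the rule gives values per capture, by layer), 1 capture lay far from the other 3, by a gap that took up more of the range than Dixon's 95% critical value, which chance alone exceeds in about 5% of such sets. Hsp90ab1 in orbital capture 1 had an intensity of 645.9, and the other orbital captures had 375.7 to 408.4, a gap of 0.879 of the range. Without that capture the layer difference was 0.47 and did not pass (adjusted p = 0.0580). Hspe1 in orbital capture 3 had 1334.8, and the other orbital captures had 1686.2 to 1741.3 (0.864 of the range). Hspbap1 in orbital capture 3 had 35.8, and the other orbital captures had 49.0 to 50.6 (0.892 of the range). Orbital capture 3 was also the capture with the highest 3′ to 5′ ratio of Gapdh signal, 12.9. Its ratio of beta-actin signal, 8.32, lay within the 7.87 to 9.16 of the orbital captures. The part of transcript length in these values was not tested.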

How the results depend on the processing

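The number of chaperone genes called higher was 4 as reported, 7 under quantile normalization and 7 under cyclic loess normalization (which add Hspa5, Hspb6 and Hspb8), 3 when a gene's probe sets were averaged (chosen for single genes after seeing the data), where Hsp90ab1 was not called, 0 by eBayes without trend, 0 with the R2 captures alone, 0 with the R3 captures alone, and 0 to 5 when 1 capture was left out. It was 0 without global capture 1 or 3, 1 without orbital capture 1, 2 without global capture 2 (Hsph1 and Hspb7) or orbital capture 3 (Hsph1 and Hsp90ab1), and 3 to 5 without each of the others. The number called lower was 0 except with no filter, where it was 1 (Dnajc21). Over all probe sets 705 were called, 106 with the R2 captures alone, 170 with the R3 captures alone, and 461 to 725 when 1 capture was left out. Fits within 1 prefix have fewer samples, and otherwise the cause was not tested. The split of higher and lower calls was 372 to 333 as reported, 352 to 358 under quantile and 350 to 367 under cyclic loess normalization. The medians of the 8 chaperone families (the 2 other Hspb symbols left out) moved by less than the spread between captures in every alternative run.

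With the title prefix as a replicate block, 3 chaperone genes were called higher, by a fixed or by a random block, against 4, because Hspb1 did not pass (adjusted p = 0.0512 and 0.0556). The block moved the count over all probe sets to 745 (fixed) and 651 (random). The deviations of captures with the same prefix correlated by -0.00545 to 0.111 (8 pairs) and those with different prefixes by -0.134 to 0.0448 (8 pairs). These ranges overlap, and they do not settle what captures with the same prefix share.

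By eBayes without trend adjusted p was 0.0538 for Hsph1, 0.0601 for Hspa1a, 0.0663 for Hsp90ab1, 0.0984 for Hspb1, 0.0517 for Herpud1 and 0.0906 for Pfdn2. With no filter it was 0.0944 for Hspb1. The difference of Hspbp1 was -0.013 with the R2 captures alone, and -0.011 to 0.17 when 1 capture was left out. That of Hspbap1 was -0.014 to 0.22 with 1 capture left out, and that of Hsf1 -0.074 to 0.041. That of Hsf4 was -0.11 with the R2 captures alone, -0.028 with orbital captures 3 and 4 averaged, and -0.053 to 0.12 with 1 capture left out. None of these 4 genes was called in any setting. In the simulation of 4 captures per layer, 16 of 100 differences of 0.5 were recovered. It gave 78 calls, against 705 in these data, so a call there needed a smaller unadjusted p. Its recovery is therefore no measure for the differences seen here.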
